A study of Mus musculus with 6 samples.

Results

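Zbtb16 and 9 genes of the glucocorticoid response were examined in aortic RNA of mice with and without miRNA-26b. The members were the rows of the gene count table whose symbols were Zbtb16, Nr3c1, Fkbp5, Tsc22d3, Sgk1, Klf9, Errfi1, Pdk4, Mt1 and Mt2. They were 10 of 55341 rows, and all 10 were among the 16017 genes that passed the filter on low counts. The question was whether Zbtb16 followed the other members across the 6 libraries. The members were chosen by the levels of Zbtb16 in these libraries, whose difference between the genotypes was known, and by what the other genes are known for, so the members' levels, fold changes and correlations are a description and carry no test.

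Libraries M2626, M2627 and M2628 came from miRNA-26b-/- mice, and libraries M2629, M2630 and M2631 came from miRNA-26b+/+ mice, which the labels call naïve. Mice of both genotypes were 8 weeks old and fed chow. The methods place all mice on a C57BL/6 background, whereas the study's results describe founding crosses that gave a mix of 129/Sv and C57BL/6. How far the genotypes differed in strain was not given. The targeted stem cells were of 129/Sv origin. The knockout removed the part of intron 4 of Ctdsp1 that encodes miRNA-26b, so that both arms of the miRNA were lost in every cell, and the tamoxifen-inducible Cre used for the excision was bred out afterwards. RNA came from whole aortic arch and thoracic aorta after perfusion, although the labels name aortic endothelial cells and 1 passage of the methods names the carotid. The hour of killing and the litters were not given in the sources used here. Nothing in the labels says that the 3 libraries of a group were separate mice, so p-values measure only the spread between these libraries.

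The libraries held 25706728 to 33345037 counts each. Counts of Mir26b, the deleted gene, were 0 in every library except M2630, which had 20, so the precursor row checked the genotype of no library but that one. Ctdsp1, the host gene, was measured at 201, 182 and 182 CPM (counts scaled to a common library total) in the miRNA-26b-/- libraries and at 148, 166 and 180 in the miRNA-26b+/+ libraries. Across all genes, 1036 had an unadjusted p under 0.05 and 1 had an adjusted p under 0.05 in edgeR's quasi-likelihood test. The genotypes of most genes overlapped, and 11.5% of all genes tested did not. With so few libraries, such separation can arise without any difference between the genotypes. Per kilobase of exon, the smooth muscle marker Acta2 averaged 7370 ± 671 CPM and Pecam1, the endothelial marker with the highest mean, 74.6 ± 37.4 CPM (SD, n = 6), so that smooth muscle RNA was abundant in libraries labelled as endothelial cells. In such bulk tissue, fewer cells of a type and less RNA per cell cannot be told apart.

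Glucocorticoids bind the glucocorticoid receptor, which is encoded by Nr3c1 and is held in the cytoplasm by the chaperone Hsp90 and its partners. The bound receptor moves into the nucleus, where it turns on genes that carry glucocorticoid response elements and restrains inflammatory genes through other factors. Hormone release follows the time of day and rises with handling and stress, and several of the target genes respond quickly. Zbtb16 encodes PLZF, a zinc finger repressor with a BTB domain that natural killer T cells need for their development and that glucocorticoids induce in many tissues. Fkbp5 encodes a co-chaperone that lowers the affinity of the receptor for hormone. Tsc22d3 encodes the anti-inflammatory protein GILZ, Sgk1 a kinase of ion transport and survival, Errfi1 an inhibitor of the EGF receptor, Klf9 a transcriptional repressor, and Pdk4 a kinase that shuts pyruvate out of the citric acid cycle. Mt1 and Mt2 encode metallothioneins, which bind zinc and copper and respond to metals as well as to glucocorticoids.

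The sequences that bear on the deleted miRNA and on hormone response are shown first. Mature miRNA sequences were taken from RefSeq (GRCm38), with the seed, bases 2 to 8, in capitals. The lost miRNA lies at chr1:74394324-74394344 on the plus strand, and miR-26a-5p, which the deletion did not target, has the same seed.
mmu-miR-26b-5p: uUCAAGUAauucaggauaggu
mmu-miR-26a-5p: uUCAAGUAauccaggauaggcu
Of the 10 members, 1 had a match to that seed (TACTTGA, searched in the sense strand of the 3′ UTR of 1 transcript per gene), and it was Zbtb16. Its match was followed by an A and was therefore of the 8-base kind (TACTTGAA), shown in capitals within the surrounding UTR at chr9:48655844-48655867, minus strand, position 1283 of 2845 bases.
Zbtb16 site: gcacattgTACTTGAAttacctca
Matches of this 8-base kind were present in 4.3% of 21153 genes with an annotated 3′ UTR, and TACTTGA, with or without the A, in 9.96%. The form ACTTGAA, which has the A but lacks the first T, occurred 1 time each in the 3′ UTRs of Nr3c1 and Klf9. Its share over all genes was not counted. A match describes letters, not binding, and no binding was measured.

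Promoter windows from RefSeq, 250 bases before to 50 after a transcript start, were at hand for 8 of the 10 members and not for Zbtb16 or Nr3c1. They were searched on both strands. Matches are in capitals, and the coordinates are those of the whole stretch shown, flanking bases included. The full palindrome of the glucocorticoid response element, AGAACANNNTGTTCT, was found in 0.00913% of all windows, which was 3 of 32851. A start of Sgk1 was 1 of these 3, with the palindrome beginning 189 bases before it, within the stretch at chr10:21993694-21993722. Sgk1 had 6 of the 16 member windows. A looser form, GAACANNNTGT, which is contained in the palindrome, was found in 0.971% of windows, among them that Sgk1 window and 1 of Mt1, at chr8:94178990-94179014.
Sgk1 element: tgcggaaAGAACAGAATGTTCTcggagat
Mt1 element: tatagggACATGATGTTCcacacgt
The core of the metal response element was searched as TGCACNC, present in 12.6% of windows, and TGCGCNC, present in 15.4%. Both forms were found in the windows of Mt1 and of Mt2, and TGCGCNC also in a window of Sgk1. Examples from Mt1 and Mt2 are at chr8:94179059-94179079 and chr8:94172561-94172581.
Mt1 metal core: cccgctgTGCACACtggcgct
Mt2 metal core: ggagggcGTGTGCAggctctg

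Zbtb16 was the member that differed most between the genotypes. The gene lies at chr9:48654297-48836222 on the minus strand. Its levels in the miRNA-26b-/- libraries were 12.6 CPM in M2626, 32.7 in M2627 and 19.9 in M2628. In the miRNA-26b+/+ libraries they were 37.5 CPM in M2629, 190 in M2630 and 171 in M2631. All 3 knockout libraries were below all 3 wild-type libraries, but M2629 was close to M2627 and far from the other wild-type libraries. The means were 21.7 ± 10.2 CPM (SD, n = 3) without miRNA-26b and 133 ± 83.1 CPM (SD, n = 3) with it, and the log2 fold change was -2.57 ± 0.47 (SE). Without any 1 of the libraries it ranged from -3.02 to -2.21.

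The same direction and separation was not seen in the 9 other members, each of which had overlapping genotypes. Of all 10 members, 1 (Zbtb16) did not overlap between the genotypes and lay lower in the miRNA-26b-/- libraries, which is 10%, beside 5.88% of all genes tested that lay entirely lower, 5.65% that lay entirely higher and 11.5% that did not overlap in either direction. Of the 10 members, 1 had an unadjusted p under 0.05, beside 6.47% of all genes, and 0 had an adjusted p under 0.05, beside 0.00624% of all genes in edgeR, whether in edgeR, in DESeq2 or in limma voom, where 1 member each also had an unadjusted p under 0.05. Since the choice of members used this contrast, nothing is read from these counts. The 8 induced genes other than Zbtb16 had 5 log2 fold changes above 0 and 3 below, with a median of 0.095, beside a median of 0.013 over all genes tested. Fold changes below 0 made up 48.6% of all genes.

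**Figure D1:**
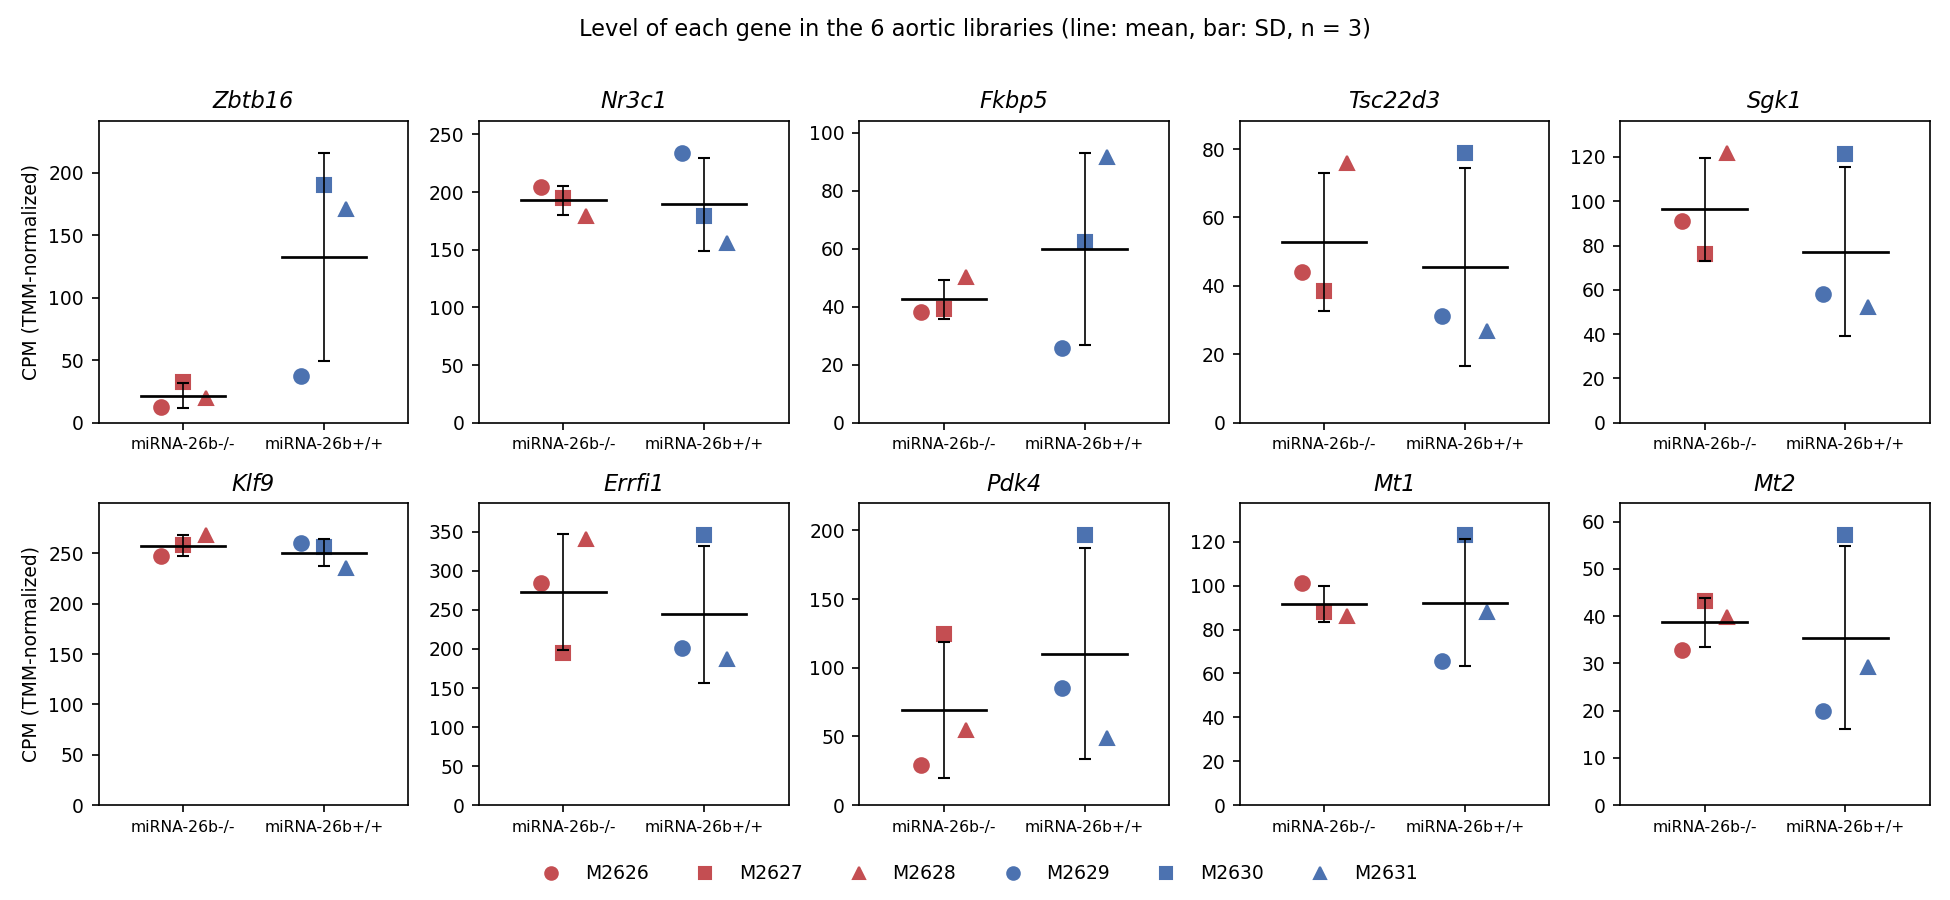
Levels of the 10 members in TMM-normalized CPM (y axis, from 0) in the 3 miRNA-26b-/- (red) and 3 miRNA-26b+/+ (blue) libraries; each marker is 1 library, the line is the mean and the bar the SD. Zbtb16 is the panel in which the genotypes do not overlap, with M2629 at 37.5 CPM near the highest knockout library at 32.7 CPM.

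Other cell types that could carry Zbtb16 were checked by their markers. Of 7 genes fixed as markers of T and natural killer T lymphocytes, 3 passed the filter, Cd3e and Klrb1c had 0 counts in every library, and Gata3, the marker with the highest mean, was at 2.22 to 5.78 CPM. The summed level of these 7 markers was 7.07 to 10.7 CPM in the miRNA-26b-/- libraries and 5.26 to 11.2 CPM in the miRNA-26b+/+ libraries. Endothelial markers summed to 384, 415 and 1584 CPM in M2626, M2627 and M2628 and to 1098 to 1508 CPM in the wild-type libraries. M2628 thus had low Zbtb16 at the highest endothelial level, whereas M2626 and M2627 were low in both. Nerve markers, with Mbp the highest, had their sum at 97.6 to 267 CPM in the knockout and at 8.85 to 56.0 CPM in the wild-type libraries, the direction opposite to that of Zbtb16. Skeletal muscle markers, with Ckm the highest, summed to 8.40 to 90.7 and 2.18 to 11.9 CPM. Adipocyte markers, with Fabp4 the highest, summed to 562 to 1924 and 475 to 1366 CPM, lowest in M2631. Fibroblast markers, with Col1a1 the highest, summed to 4213 to 7638 and 4534 to 5172 CPM, and macrophage markers, with Csf1r the highest, to 98.1 to 286 and 172 to 212 CPM. The part of these cell types in the Zbtb16 difference was not tested.

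The receptor gene, Nr3c1, lies at chr18:39410545-39519421 on the minus strand. It was at 204, 195 and 179 CPM in M2626, M2627 and M2628, and at 234, 179 and 155 CPM in M2629, M2630 and M2631. The wild-type libraries held both the highest and the lowest value, and the knockout libraries lay between them. Its log2 fold change was 0.02 ± 0.17 (SE), and leaving out 1 library at a time moved it between -0.11 and 0.20. Nr3c1 and Klf9 had the narrowest ranges of the 10 members, 1.51-fold and 1.14-fold from the lowest to the highest library, beside 15.1-fold for Zbtb16.

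Fkbp5, the co-chaperone of the receptor, lies at chr17:28399094-28517527 on the minus strand. It was at 38.3, 39.2 and 50.4 CPM in the miRNA-26b-/- libraries and at 25.6, 62.5 and 91.7 CPM in M2629, M2630 and M2631. As with Zbtb16, M2629 was the lowest of the wild-type libraries and M2630 and M2631 were the 2 highest of all 6. Unlike Zbtb16, M2629 was also below every knockout library. The log2 fold change was -0.49 ± 0.33 (SE), and it ranged from -0.86 to -0.04 when 1 library was left out, the lower end without M2629. The CV was 15.8% in the knockout and 55.3% in the wild-type libraries, so that the spread lay mostly in the wild-type mice.

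Tsc22d3, Sgk1 and Errfi1 ran together, and over all 6 libraries not with Zbtb16. Tsc22d3 lies at chrX:140539528-140600659 on the minus strand and was at 44.1, 38.6 and 75.9 CPM in the knockout and 31.1, 78.9 and 26.7 CPM in the wild-type libraries. Sgk1 lies at chr10:21882184-21999903 on the plus strand and was at 90.9, 76.3 and 122 CPM, then 58.3, 121 and 52.3 CPM in the same order. Errfi1 lies at chr4:150853919-150868892 on the plus strand and was at 284, 194 and 340 CPM, then 202, 345 and 187 CPM. In each of the 3 genes, M2628 of the knockout and M2630 of the wild-type mice were the 2 highest libraries and nearly level with each other. M2631, which was among the highest for Zbtb16 and Fkbp5, was the lowest of all for these 3.

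The log2 fold changes were 0.22 ± 0.36 for Tsc22d3, 0.32 ± 0.28 for Sgk1 and 0.16 ± 0.23 for Errfi1 (SE). They moved with library M2630, which was the highest or next to highest for all 3: without it the values were 0.87, 0.80 and 0.49 in that order. With M2627, the library with the most cardiac muscle RNA, also left out, the values were 1.06, 0.95 and 0.69. The last comparison sets 2 libraries against 2. Without M2628, the values of Tsc22d3 and Errfi1 were -0.13 and -0.03, and without M2631 they were -0.06 and -0.01, so their direction turned. Endothelial markers summed highest in M2628 and M2630, at 1584 and 1508 CPM. They summed to 1340 CPM in M2631 and to 384 and 415 CPM in M2626 and M2627. The part of endothelium in the levels of these 3 genes was not tested.

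Klf9 was the steadiest of the induced genes. It lies at chr19:23141226-23168134 on the plus strand and was at 247, 258 and 268 CPM in the knockout libraries and 260, 257 and 235 CPM in the wild-type libraries. All 6 values were within 1.14-fold of each other, the groups overlapped, and the log2 fold change was 0.04 ± 0.13 (SE). The CV within genotypes was 4.03% and 5.40%, the smallest among the members.

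Pdk4 varied more from library to library than any member other than Zbtb16. The gene lies at chr6:5483351-5496309 on the minus strand. It was at 29.2, 124 and 54.6 CPM in M2626, M2627 and M2628 and at 85.1, 196 and 48.8 CPM in M2629, M2630 and M2631. M2627 and M2630 were the highest library of their genotype, and the genotypes overlapped, with a log2 fold change of -0.62 ± 0.45 (SE). Cardiac muscle markers were also highest in these 2 libraries, at 227 and 200.5 CPM in sum, beside 8.12 to 44.1 CPM in the other 4, with Myh6 at 146 and 135 CPM. Adipocyte markers summed to 1924 and 1366 CPM there and to 475 to 985 CPM elsewhere. Heart muscle and fat are tissues known for high Pdk4, and their part in its levels was not tested. Without M2630 alone the log2 fold change was 0.09 and without M2627 alone -1.37, and with both left out it was -0.67 ± 0.35 (SE).

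The metallothionein genes Mt1 and Mt2 lie next to each other on the plus strand, at chr8:94179082-94180327 and chr8:94172664-94173568. Mt1 was at 101, 87.8 and 86.1 CPM in the knockout and 65.5, 123 and 87.9 CPM in the wild-type libraries. Mt2 was at 32.9, 43.2 and 39.9 CPM, then 19.8, 57.1 and 29.3 CPM. For both, M2629 was the lowest and M2630 the highest of all 6 libraries, and the knockout libraries lay between. The log2 fold changes were 0.00 ± 0.21 for Mt1 and 0.15 ± 0.31 for Mt2 (SE). The paralogs are alike in sequence and may share reads, and Mt2 overlaps the antisense gene Gm45774, whose reads cannot be told apart from its own in an unstranded count. Of the other metal response genes, 3 of 5 on the list passed the filter and 0 had an unadjusted p under 0.05 in edgeR, in DESeq2 or in limma voom, with Mtf1, the metal-sensing factor, at 24.3 to 46.6 CPM.

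**Figure D2:**
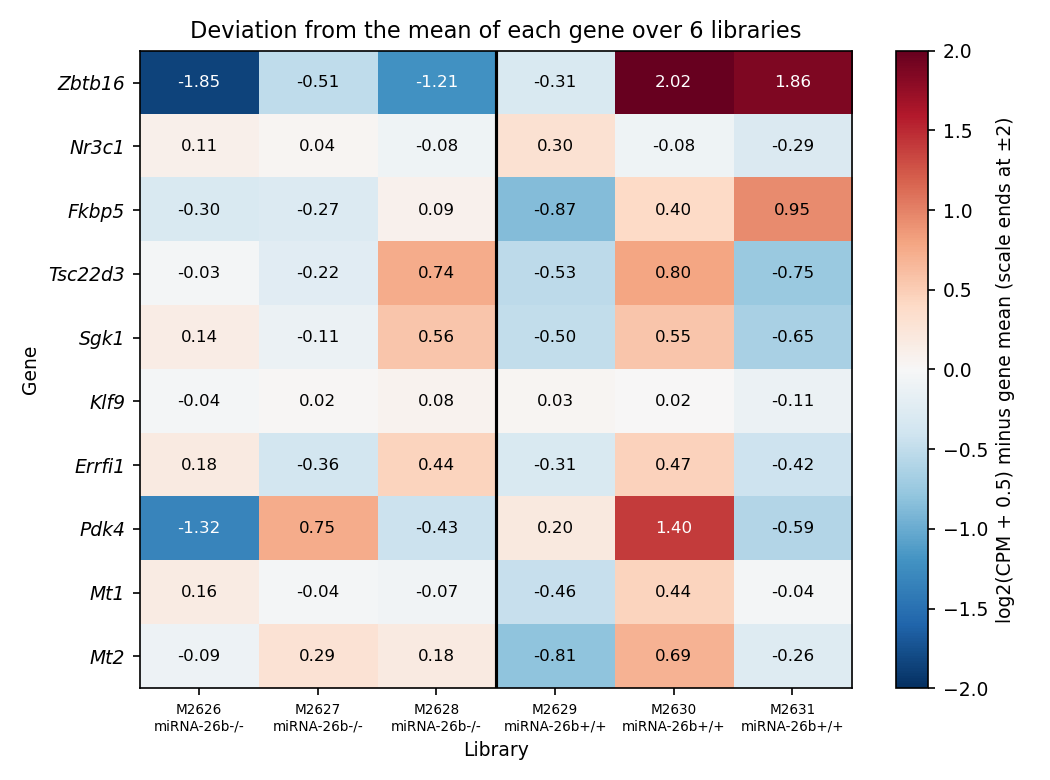
Deviation of each member (rows) in each library (columns) from its mean over the 6 libraries, in log2(CPM + 0.5), with red above and blue below the mean and the line dividing the genotypes. The row of Zbtb16 is negative in all 3 knockout libraries and in M2629 and positive in M2630 and M2631, whereas the rows of Tsc22d3, Sgk1 and Errfi1 are positive in M2628 and M2630 and negative in M2631.

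Per kilobase of exon, on which scale levels of different genes can be set side by side, Mt1 (73.8 ± 15.3 CPM per kb), Errfi1 (72.2 ± 20.7), Mt2 (63.0 ± 21.8) and Klf9 (52.8 ± 2.38) were the highest members (SD, n = 6). Pdk4 (25.6 ± 17.6), Nr3c1 (24.9 ± 3.48), Sgk1 (17.7 ± 6.15), Zbtb16 (14.6 ± 15.3) and Tsc22d3 (11.3 ± 5.22) followed, and Fkbp5 (5.42 ± 2.47) was the lowest. Neighbours in this order differed by less than the larger of their SDs, apart from the steps from Klf9 down to Pdk4, from Nr3c1 to Sgk1 and from Tsc22d3 to Fkbp5, which were larger than the SD of either gene.

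Zbtb16 followed few of the other members over the 6 libraries. Likeness was measured as Pearson's r of log2(CPM + 0.5) over all 6 libraries, in which both genes of a pair are read from the same tissue mix and depth, and no p is given. With Zbtb16, r was 0.68 for Fkbp5 (Spearman's rho 0.54), 0.54 for Pdk4 (rho 0.60), 0.32 for Mt1 (rho 0.26) and 0.24 for Mt2 (rho 0.14). It was -0.07 for Tsc22d3 (rho -0.09), -0.13 for Errfi1 (rho -0.03), -0.20 for Sgk1 (rho -0.31), -0.41 for Klf9 (rho -0.26) and -0.57 for Nr3c1 (rho -0.31). Thus 4 of the 9 were above 0 and 5 below, and their median of -0.07 lay inside the middle range of all 11681 genes with a mean of at least 5 CPM, whose quartiles were -0.37 and 0.37. Single libraries turned some signs. Without M2631, r with Zbtb16 was 0.38 for Tsc22d3, 0.24 for Sgk1 and 0.21 for Errfi1. Without M2630 it was -0.70, -0.79 and -0.73 in that order.

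Fkbp5 was the member most like Zbtb16, with 7.72% of genes more like it than Fkbp5. That likeness rests on M2630 and M2631 together: without both, the 2 libraries farthest from the median of Zbtb16, r with Fkbp5 was -0.54. With any 1 library left out, r with Fkbp5 was 0.46 to 0.84. For Pdk4, r with Zbtb16 was 0.93 without M2630 and M2631, and 0.19 to 0.90 with any 1 library left out. The order of the wild-type libraries was the same for Zbtb16 and Fkbp5 only at the low end, with M2629 lowest for both. When each library was taken as its deviation from its genotype's mean, so that the difference between genotypes dropped out, r with Zbtb16 was 0.81 for Fkbp5, 0.81 for Mt2, 0.65 for Mt1 and 0.44 for Pdk4. It was 0.28 for Tsc22d3, 0.27 for Sgk1 and 0.10 for Errfi1, and -0.82 for Nr3c1. Within genotypes, therefore, the low value of M2629 was shared by Zbtb16, Fkbp5, Mt1 and Mt2, which all had their lowest wild-type value there.

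**Figure D3:**
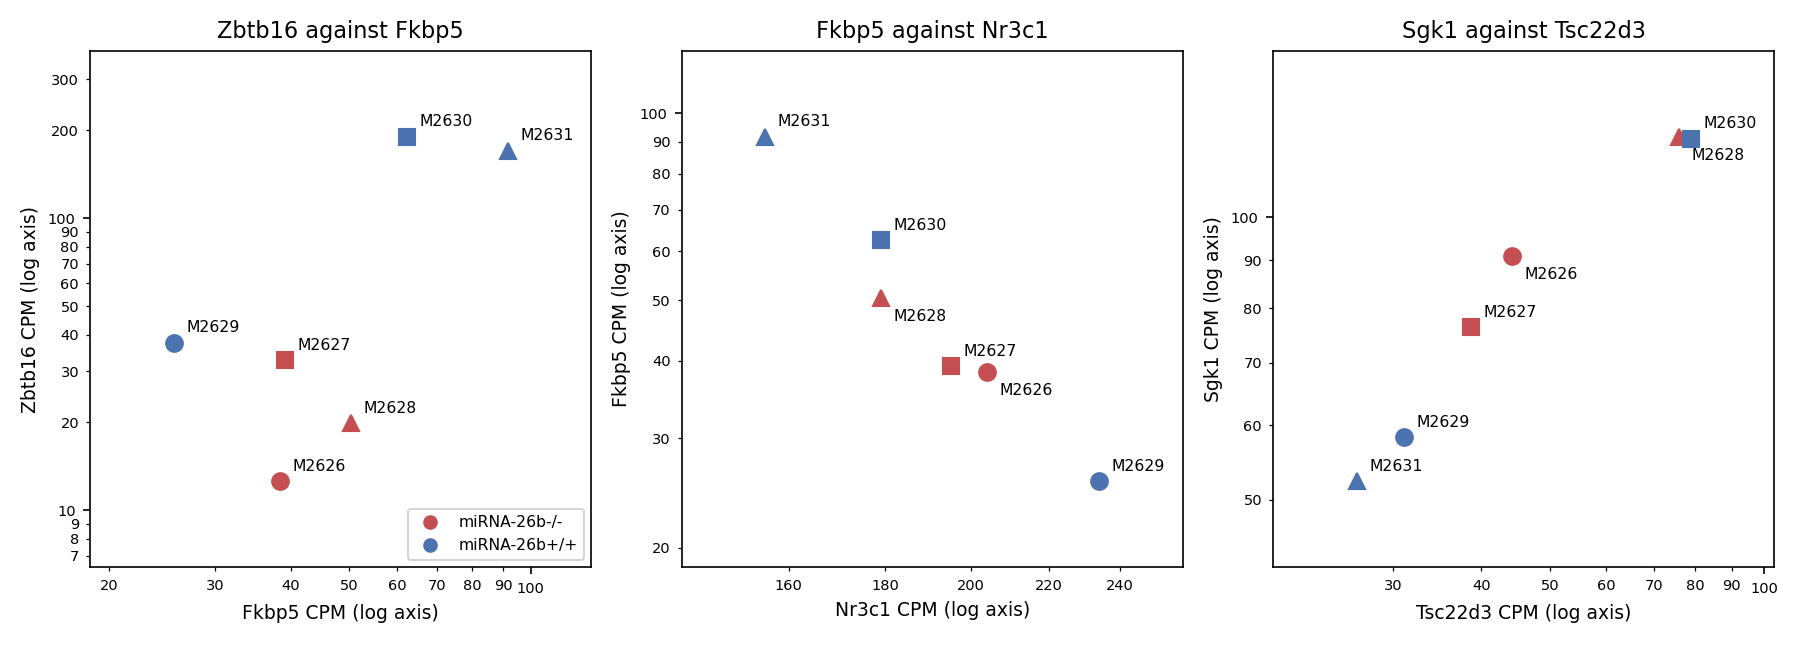
Levels of 3 pairs of members in the 6 libraries, in CPM on log axes, with miRNA-26b-/- libraries in red and miRNA-26b+/+ libraries in blue. Zbtb16 against Fkbp5 (r = 0.68) sets M2630 and M2631 apart from the rest, Fkbp5 is lowest where Nr3c1 is highest (r = -0.98), and Sgk1 is high where Tsc22d3 is (r = 0.98).

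Some other pairs of members were closer than any pair with Zbtb16. Of the 45 pairs, 3 had r of at least 0.9, and these were Tsc22d3 with Sgk1 (0.98), Tsc22d3 with Errfi1 (0.94) and Sgk1 with Errfi1 (0.94). Among 11680 genes, Sgk1 ranked 6 and Errfi1 ranked 18 by likeness to Tsc22d3. Both pairs held in deviations from the genotype means, at 0.99 and 0.94. Without the 2 libraries farthest from the median of Tsc22d3, r was 0.99 with Sgk1 and 0.77 with Errfi1. For Sgk1 with Errfi1 it was 0.91 without the 2 libraries farthest from the median of Sgk1. Mt1 and Mt2 had r of 0.85, which was -0.37 without the 2 libraries farthest from the median of Mt1. The median over the 45 pairs was 0.24, and 14 pairs were negative.

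Nr3c1 and Fkbp5 formed the most negative pair, with r of -0.98 and Spearman's rho of -0.94. Fkbp5 ranked 11678 of 11680 genes by likeness to Nr3c1, so almost every other gene was more like the receptor gene than Fkbp5 was. M2629 had the highest Nr3c1 and the lowest Fkbp5, and M2631 had the lowest Nr3c1 and the highest Fkbp5. The value stayed at -0.90 without the 2 libraries farthest from the median of Nr3c1 and was -0.99 in deviations from the genotype means. The range of Nr3c1 was only 1.51-fold, against 3.58-fold for Fkbp5.

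**Figure D4:**
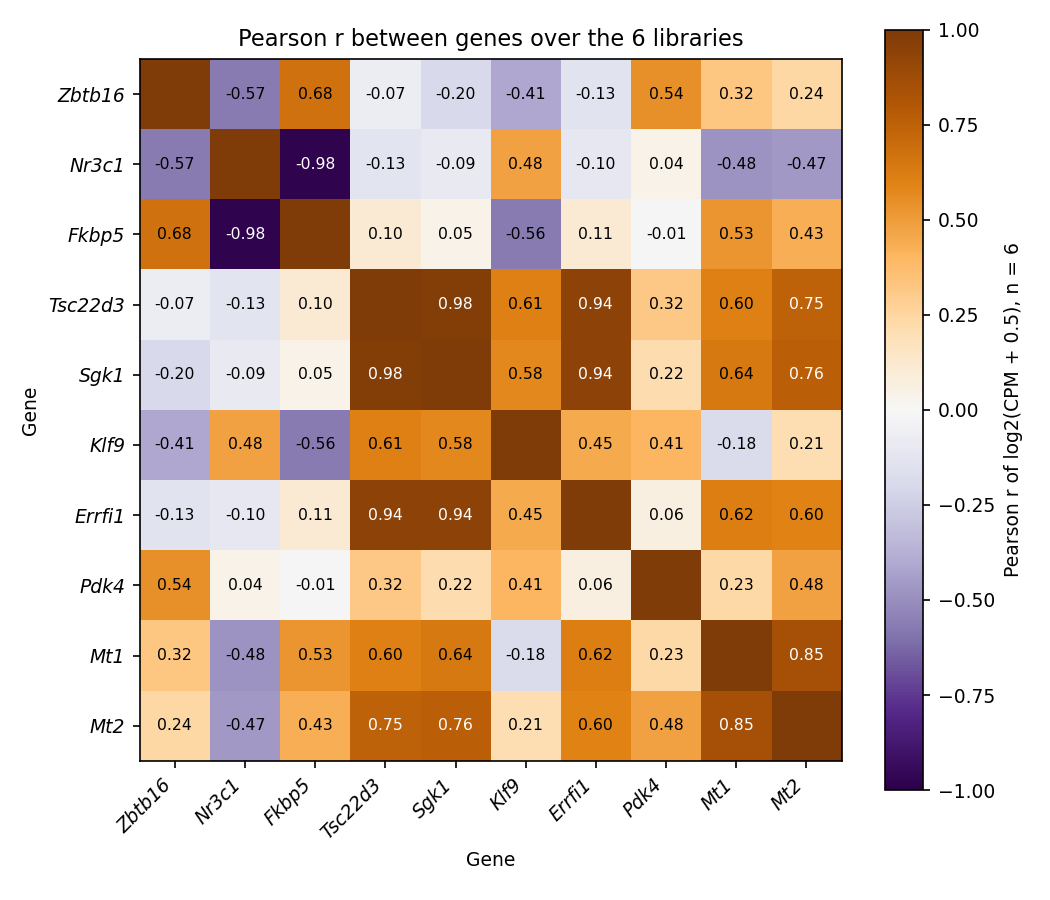
Pearson r between each 2 members over the 6 libraries, from log2(CPM + 0.5), with orange above and purple below 0. Tsc22d3, Sgk1 and Errfi1 form a block at 0.94 to 0.98, Nr3c1 with Fkbp5 is at -0.98, and the row of Zbtb16 reaches 0.68.

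The genes most like Zbtb16 were not on any of the lists. They were Gm16069 (r = 0.997), Tada2b (0.98), Actl6a (0.98), Polr1b (0.98) and Adam9 (0.98), and 88 genes had r of at least 0.9. Adam9, a cell-surface metalloprotease, was at 142, 169 and 169 CPM in the knockout and 179, 227 and 216 CPM in the wild-type libraries. Actl6a, a subunit of chromatin remodelling complexes, was at 24.6, 27.0 and 24.5 CPM, then 28.0, 34.4 and 32.4 CPM. Their order of libraries was close to that of Zbtb16, at a far smaller range. Gm16069 was low, at 8.28 to 11.98 CPM, and lies antisense to another gene, so its reads may in part belong to that gene.

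Of 30 other genes that glucocorticoids are known to induce, 28 were tested; Tat had 0 counts throughout and Trim63 was too low. The gene lists, like the members, were chosen with earlier results of these data known, so their shares are a description. Of the 28, 13 had fold changes above 0 and 15 below, with a median of -0.02. Unadjusted p-values were under 0.05 for 5 genes in edgeR, 1 higher and 4 lower in the knockout, which is 17.9%, beside 6.47% of all genes (3.4% higher and 3.07% lower). None of the 28 had an adjusted p under 0.05 in edgeR, in DESeq2, where 4 had an unadjusted p under 0.05, or in limma voom, where 3 had. The count of 5 in edgeR was 2 without M2626 or M2630, 1 without M2627 and 3 without M2629.

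Txnip, which binds thioredoxin and limits glucose uptake, was at 520, 464 and 555 CPM in the knockout and 674, 786 and 565 CPM in the wild-type libraries. It was the 1 gene of the 28 whose genotypes did not overlap (3.57%, beside 11.5% of all genes), with a log2 fold change of -0.39 ± 0.14 (SE; adjusted p = 0.74, edgeR). Map3k6, a stress kinase, was at 17.0, 16.2 and 20.3 CPM, then 14.9, 45.7 and 33.9 CPM, for a log2 fold change of -0.81 ± 0.35 (SE). Like Zbtb16 and Fkbp5, it was low in M2629 and high in M2630 and M2631. Angptl4, an inhibitor of lipoprotein lipase, had a log2 fold change of -0.81 ± 0.36 (SE), and Lcn2, an iron-scavenging lipocalin, one of -2.32 ± 1.11 (SE) at no more than 5.17 CPM. Single libraries weighed on these 3: without M2630 the values were -0.45 for Map3k6, -0.49 for Angptl4 and -1.46 for Lcn2. Angptl4 was also at -0.45 without M2626 and at -1.36 without M2627, and Lcn2 at -3.50 without M2626. Crispld2, a secreted protein that was the 1 higher gene, was at 598, 536 and 428 CPM in the knockout and 363, 349 and 489 CPM in the wild-type libraries, for 0.38 ± 0.16 (SE).

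M2630 was the highest library for 5 of the 8 induced members and for 10 of the 28 other induced genes, beside 13.6% of all genes tested. M2631 was the lowest for 4 of the 8 members and M2629 for 3, beside 15.6% and 12.6% of all genes. Among the 28 other induced genes, M2631 was the lowest for 5 and M2629 and M2626 for 8 each, beside 20.4% of all genes for M2626. The library with high Zbtb16 and high levels of most induced genes was thus M2630, while M2631, with nearly as much Zbtb16, was low in Tsc22d3, Sgk1, Errfi1 and Klf9.

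Several chaperones that hold the receptor had lower levels in the miRNA-26b-/- libraries, but not all. Ptges3, a chaperone on the same list, averaged 58.8 CPM in the knockout and 47.7 CPM in the wild-type libraries. Its genotypes overlapped, and its log2 fold change was 0.30 ± 0.20 (SE). Fold changes on the list were below 0 for 13 genes and above 0 for 5. Of 19 genes for receptor cofactors and for steroid enzymes and transporters, 18 were tested, 6 had an unadjusted p under 0.05 in edgeR and all 6 were lower in the knockout. That is 33.3%, beside 3.07% of all genes that were lower with p under 0.05, and the list's median log2 fold change was -0.31. In 9 of the 18, or 50%, the genotypes did not overlap, beside 11.5% of all genes. The list was chosen with earlier results of these data known, so these shares are a description. With all 6 libraries, none had an adjusted p under 0.05 in edgeR or in limma voom, where 8 had an unadjusted p under 0.05. In DESeq2, 3 (Stip1, Hsp90ab1 and Hspa8) did, and 6 had an unadjusted p under 0.05. Without M2628, Stip1 and Hspa8 had an adjusted p under 0.05 in edgeR, as did 82 of all genes tested.

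Stip1, the adaptor between Hsp70 and Hsp90, was at 109, 108 and 113 CPM in the knockout and 180, 194 and 182 CPM in the wild-type libraries. The gap between the genotypes exceeded the spread within either, and the log2 fold change was -0.75 ± 0.14 (SE; adjusted p = 0.21, edgeR). Hspa8, the constitutive Hsp70, was at 750, 583 and 893 CPM, then 1138, 1239 and 1143 CPM, for -0.66 ± 0.15 (SE). Hsp90ab1 was at 1222, 1034 and 1232 CPM, then 1625, 1657 and 1675 CPM, for -0.51 ± 0.12 (SE). Hsp90aa1, the inducible Hsp90, had a log2 fold change of -0.59 ± 0.16 (SE), and Abcb1b, an efflux pump that carries steroids, one of -1.33 ± 0.48 (SE) at 1.21 to 13.2 CPM. The sixth was Fkbp4, the co-chaperone that acts opposite to Fkbp5, at -0.36 ± 0.16 (SE); it is named here after its value was seen. These chaperones also serve many proteins other than the receptor. The nerve marker sums given above were higher in all 3 knockout libraries, and their part in these differences was not tested.

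Unlike Zbtb16, Stip1, Hspa8 and Hsp90ab1 were as high in M2629 as in the other wild-type libraries. The enzyme that makes active glucocorticoid in tissue, Hsd11b1, and the mineralocorticoid receptor, Nr3c2, had values of -0.23 ± 0.27 and 0.07 ± 0.28 (SE), and neither passed the test; they too were picked after their values were seen.

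**Figure D5:**
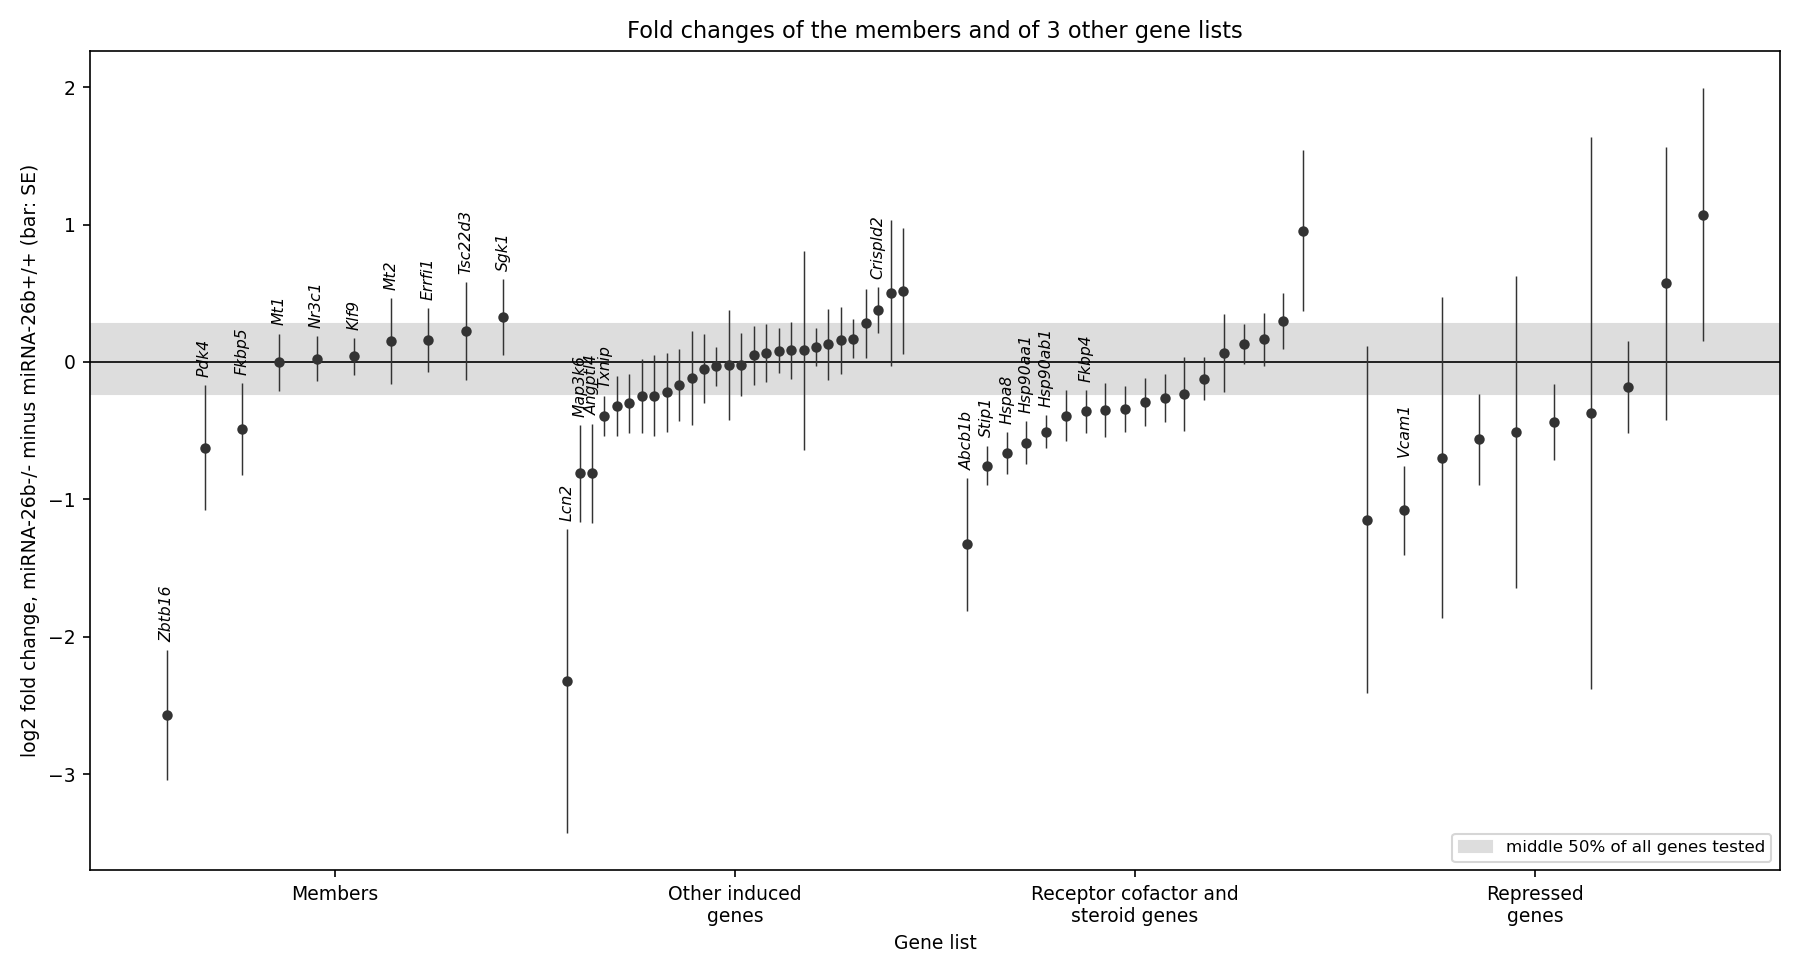
Log2 fold changes, miRNA-26b-/- minus miRNA-26b+/+ (y axis; points are genes in order of value, bars are SE), of the 10 members, 28 other induced genes, 18 cofactor and steroid genes and 10 repressed genes, with the middle 50% of all genes tested in grey. Zbtb16 at -2.57 stands apart from the other members, which lie between -0.62 and 0.32; names in the other lists mark unadjusted p under 0.05.

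Inflammatory genes that glucocorticoids are known to repress were mostly low. Of 12, Il6 and Tnf had 0 counts in every library and 10 were tested, with a median log2 fold change of -0.47. Vcam1, an adhesion molecule of activated endothelium, was the 1 gene (10%, beside 6.47% of all genes) with an unadjusted p under 0.05, at 29.7, 35.0 and 96.8 CPM in the knockout and 113, 134 and 93.6 CPM in the wild-type libraries. Its log2 fold change was -1.08 ± 0.32 (SE), and -1.80 without M2628, where alone among the exclusions its adjusted p in edgeR was under 0.05. Its genotypes overlapped, and M2626 and M2627, its 2 lowest libraries, were also those with the lowest endothelial marker sum; the part of endothelium in that was not tested. None of the 10 had an adjusted p under 0.05 in edgeR, in DESeq2, where 1 had an unadjusted p under 0.05, or in limma voom, where 2 had, with all 6 libraries. The count of 1 in edgeR was 4 without M2628 and 2 without M2629.

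Clock and early response genes were read because hormone level follows the time of day and stress at killing. Of 14 clock genes tested, 1 had an unadjusted p under 0.05 (7.14%, beside 6.47% of all genes). It was Tef, a clock output factor, at 106, 84.0 and 82.0 CPM in the knockout and 56.9, 75.1 and 64.7 CPM in the wild-type libraries, with a log2 fold change of 0.47 ± 0.18 (SE). Clock, the gene of that list with the highest mean, was at 122 to 140 and 129 to 177 CPM. The clock list summed to 737 CPM in M2626, which had the lowest Zbtb16, and to 634 to 698 CPM in the other 5 libraries. Dbp was at 35.5 CPM in M2626, beside 6.92 to 14.5 CPM elsewhere, and Nr1d1 at 195 CPM, beside 91.9 to 131 CPM. Per1 was highest in M2628 and Per2 in M2630. These 4 genes are named after their values were seen, and the part of the time of day was not tested. Of 8 early response genes, 1 (Junb) had an unadjusted p under 0.05 (12.5%), with a log2 fold change of -0.80 ± 0.29 (SE); Tef and Junb are named after their values were seen. Egr1, with the highest mean, was at 144 to 427 CPM, and the summed level was highest in M2630 at 1568 CPM, beside 615 to 1102 CPM in the other 5 libraries. None of the genes of these 2 lists had an adjusted p under 0.05 in edgeR, DESeq2 or limma voom with all 6 libraries. Without M2628, Junb had an adjusted p under 0.05 in edgeR, as did 82 of all genes tested. M2630 was also the library with the highest Tsc22d3, Errfi1, Pdk4, Mt1, Mt2 and Zbtb16, and the part of the early response in those levels was not tested.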

How the data were processed

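Mouse aortic RNA was sequenced in 6 poly(A)-selected libraries. According to the methods, reads were aligned with STAR to GRCm38 (mm10), and per the file header and the labels the authors counted reads over exons by gene name with featureCounts 1.6.4 on the GENCODE annotation M21, with reads in overlapping genes counted for each and no strand used. The deposited values are raw counts per gene. A second deposited table of CPM values was not used, and 0 columns of per-sample values lacked a sample.

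Of all genes, those above 1 CPM in 2 or more libraries and with a summed count of 2 or more were tested. Counts were scaled by TMM and tested for genotype with edgeR 4.0.16 (quasi-likelihood, prior count 0.125, Benjamini-Hochberg over all genes tested, R 4.3.3), with DESeq2 1.42.0 and limma 3.58.1 voom as alternatives; the fitting steps were checked on simulated counts. CPM were computed on TMM-scaled library sizes, and likeness used a pseudocount of 0.5 CPM. Seed matches were searched in 3′ UTRs derived from GENCODE transcripts and motifs in RefSeq promoter windows. Depth was 25706728 to 33345037 counts. Groups came from the labels, and libraries were left out 1 at a time.

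The members and lists were chosen with earlier results of these data known. Named genes were the 10 members, up to 5 genes per glucocorticoid list with unadjusted p under 0.05, the gene with the highest mean of each marker, clock, early response and metal list, and the 5 genes with the highest r with Zbtb16.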

Additional observations from a re-analysis of the deposited data

How the results depend on the processing

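Zbtb16 was lower in the miRNA-26b-/- libraries under all 15 alternatives, with log2 fold changes from -3.02 to -2.21. Genes with an unadjusted p under 0.05 numbered 1036, beside 840 in DESeq2, 802 with the earlier quasi-likelihood method of edgeR, 686 to 1692 when 1 library was left out and 607 without M2627 and M2630. Genes with an adjusted p under 0.05 numbered 1, beside 57 in DESeq2, 3 in voom, 0 with the earlier method and 0 to 82 when 1 library was left out, the highest without M2628. Members with lower levels in the knockout numbered 4, and 3 to 8 when 1 library was left out, the highest without M2631. Other induced genes called numbered 5, beside 3 in voom, 3 with only the sum of counts as a filter, 3 with the earlier method, 2 without M2627 and M2630, and 1 to 5 without 1 library. Repressed genes called numbered 1, beside 2 in voom, 0 without M2627 and M2630, and 1 to 4 without 1 library. Cofactor and steroid genes called stayed at 5 to 8. The median r of the 9 members with Zbtb16 was -0.07, beside 0.28 in deviations from the genotype means, -0.58 to 0.38 without 1 library and -0.58 without M2627 and M2630. The earlier method and the joint exclusion of M2627 and M2630 were chosen after seeing the data. Causes were not tested. No paired analysis was possible because the labels give no replicate numbers that tie a knockout library to a wild-type library.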

Other observations

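The library pattern of Tsc22d3, Sgk1 and Errfi1 extended to other induced genes and to genes outside that list. Of the 28 other induced genes tested, 7 (25%) had their 2 highest levels in M2628 and M2630, beside 6.79% of all genes tested. The 7 were Per1, Cebpd, Ddit4, Nfkbia, Cdkn1a, Bcl6 and Irs2, and they are named after their values were seen. Ddit4, an inhibitor of mTORC1, was at 18.4, 24.7 and 44.9 CPM in the miRNA-26b-/- libraries and at 7.96, 40.4 and 14.5 CPM in the miRNA-26b+/+ libraries. Per1, a clock gene that glucocorticoids induce directly, was at 34.5, 24.4 and 76.7 CPM, then 36.0, 62.5 and 47.8 CPM. Bcl6, a repressor of inflammatory genes, was at 17.7, 25.6 and 61.3 CPM, then 23.1, 55.5 and 28.6 CPM. The pattern cuts across genotype, with 1 library of each on the high side. Zbtb16 was on the low side in M2628 and on the high side in M2630. Of the 10 glucocorticoid-repressed genes tested, 2 (Ptgs2 and Sele) had the same 2 highest libraries. So did 1 of 8 early response genes (Junb), but 0 of 18 cofactor and steroid genes. Markers of other cells also had the same 2 highest libraries: 5 of 6 endothelial markers (Pecam1, Cdh5, Tek, Vwf and Emcn), 2 of 4 macrophage markers (Cd68 and Adgre1) and 1 of 5 fibroblast markers (Pdgfra). Their part in the pattern was not tested.

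2 smaller groups held 4 of the 28 genes each (14.3%). Dusp1, Cebpb, Angptl4 and Glul had their 2 highest levels in M2627 and M2630, as Pdk4 and Mt2 did, beside 7.53% of all genes tested. The other group had its 2 highest levels in M2630 and M2631, as Zbtb16 and Fkbp5 did. It held Cdkn1c, Klf15, Map3k6 and Foxo3, beside 7.06% of all genes tested. Klf15, a regulator of amino acid and glucose metabolism, was at 42.3, 38.7 and 45.4 CPM in the knockout libraries and at 38.6, 58.3 and 61.2 CPM in the wild-type libraries, so that M2629 was level with the knockout libraries, as it nearly was for Zbtb16.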
